A study of Mus musculus with 6 samples.

Results

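The lung and heart regional transcription factors were taken by gene symbol as Tbx2, Tbx3, Tbx4, Tbx5, Tbx20, Foxf1, Hoxa5, Gata6, Hand2 and Meox2, which are 10 of the 53647 genes in the files. Of these, 8 had a count. There were 6 single cell RNA libraries of the proximal PA (pulmonary artery, the vessel that leads from the right ventricle to the lungs). Each was taken as 1 wild type C57BL/6J mouse with no transgene and no treatment. Young 1 and young 2 were 3 months old. Old 1 was 20 months, old 2 was 24 months, old 3 was 28 months and old 4 was 27 months. The labels gave a sex for 3 libraries, female for young 2 and old 3 and male for old 4. The paper describes its old mice as males at 20, 24 and 27 months and a female at 28 months. It lists 3 young mice, more than the young libraries here. The study compared young with old arteries to ask what accompanies stiffening of the vessel wall with age.

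These factors bind DNA and help to set where in the body a mesodermal cell belongs. Tbx4 and Tbx5 act in the lung mesenchyme that drives branching of the lung bud, and Tbx5 also acts in the heart, where Tbx20 and Hand2 are needed for the chambers and the outflow tract from which the base of the great arteries forms. Tbx2 and Tbx3 are mostly repressors of transcription, Gata6 is a GATA zinc finger factor of heart, vessel wall and lung, Foxf1 and Hoxa5 are factors of lung mesenchyme, and Meox2 is a homeobox factor of somites and vessels.

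Cells were barcodes with at least 500 UMIs (unique molecular identifiers, tags that mark single RNA molecules), at least 300 genes and at most 20% mitochondrial UMIs. After removal of likely doublets, 15409 cells were left, and 12 cell types were named from markers in clusters made without the factors. SMCs (smooth muscle cells of the media) numbered 3330, FBs (fibroblasts, mostly of the adventitia) 1764, blood ECs (endothelial cells) 2119 and mesothelial cells 796. In each of these 4 types, 9 or 10 of the 10 markers were raised at least 2-fold, with Kdr not raised in blood ECs and Cdh1 not raised in mesothelial cells. Most other cells were airway epithelial cells and leukocytes of the surrounding tissue. Libraries held 6355125 to 50436562 UMIs in all. The depth in SMCs was very uneven, with 20891 and 22774 UMIs in the young libraries, 461926 in old 1, 6031963 in old 3 and 22134998 in old 4, while old 2 gave 3 SMCs, too few to use. Young 1, young 2 and old 2 shared 131 to 215 cell barcodes with each other, against at most 4 in any other pair. Over all barcodes, counts of Xist and Ddx3y, which mark the sexes, were 437 and 556 in young 1, 1300 and 210 in young 2, 3113 and 8488 in old 1, 335 and 905 in old 2, 21952 and 3 in old 3 and 230 and 6272 in old 4. Both were present in young 1, young 2, old 1 and old 2, and no sex was assigned from them.

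Foxf1 and Hoxa5 had 0 counts in every barcode of every library, and no level can be given for either. Other genes were at 0 as well. Of 21878 protein-coding genes matched to the GENCODE M21 annotation (build GRCm38), 1196 (5.47%) were at 0 in every barcode, among them Cox4i1 and Rpl13, which nearly every cell uses. Of the 1196 genes, 374 (31.3%) lay whole inside a longer protein-coding gene model on the same strand, against 0.0387% of the genes with a count. Foxf1 (chr8:121084386-121088144) lay inside the model Gm20388, which held 41293 counts, and Hoxa5 (chr6:52201754-52204587) lay inside Gm28308, which held 289. None of the 8 other factors lay inside such a model. Whether this position made the counts 0 was not tested, and nothing is read from them about Foxf1 or Hoxa5 RNA.

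The 8 counted factors lie on 6 chromosomes in GRCm38. Tbx2 (chr11:85832551-85841948) and Tbx4 (chr11:85886422-85916097) are neighbours, as are Tbx3 (chr5:119670669-119684724) and Tbx5 (chr5:119832668-119885219). Tbx20 is at chr9:24718138-24774303, Hand2 at chr8:57320983-57324633 and Meox2 at chr12:37108540-37179534. The promoters of Hand2, Tbx20 and Meox2 are shown because these 3 factors differed between 2 SMC sub-clusters of old 3 and old 4 described further on, with more Hand2 and Tbx20 in one and more Meox2 in the other. Each runs from 250 bases before to 50 bases after the RefSeq start of transcription, 5′ to 3′ on the gene's strand in GRCm38.p6, and capitals mark a match to the GATA motif AGATAA or its reverse complement TTATCT.
Hand2, chr8:57320733-57321032, plus strand: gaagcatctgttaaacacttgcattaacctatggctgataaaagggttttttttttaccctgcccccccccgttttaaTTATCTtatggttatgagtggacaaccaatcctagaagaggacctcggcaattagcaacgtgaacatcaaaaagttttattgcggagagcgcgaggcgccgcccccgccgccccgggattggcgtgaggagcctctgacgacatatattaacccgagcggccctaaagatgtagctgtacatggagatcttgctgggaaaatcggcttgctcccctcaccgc
Tbx20, chr9:24774254-24774553, minus strand: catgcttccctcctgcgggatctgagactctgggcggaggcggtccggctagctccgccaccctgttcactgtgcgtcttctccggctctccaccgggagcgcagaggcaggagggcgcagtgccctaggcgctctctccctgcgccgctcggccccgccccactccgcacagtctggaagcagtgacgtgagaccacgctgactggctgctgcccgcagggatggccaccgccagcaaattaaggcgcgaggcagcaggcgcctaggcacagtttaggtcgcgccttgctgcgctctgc
Meox2, chr12:37108290-37108589, plus strand: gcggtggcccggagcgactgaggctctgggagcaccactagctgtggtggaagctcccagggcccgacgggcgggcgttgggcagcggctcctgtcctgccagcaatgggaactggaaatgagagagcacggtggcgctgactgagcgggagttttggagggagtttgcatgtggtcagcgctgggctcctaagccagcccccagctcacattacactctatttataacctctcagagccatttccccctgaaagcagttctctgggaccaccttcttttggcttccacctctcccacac
The Hand2 window held 1 such match, 172 bases before the start, and the Tbx20 and Meox2 windows held none. Among 32851 RefSeq promoters of the same length, 11.2% held this motif on either strand. The T-box motif AGGTGT (reverse complement ACACCT) was in 13.7% of all promoters and in none of the 5 promoters matched, those of Tbx4, Tbx20, Hoxa5, Hand2 and Meox2. No promoter was shown for Tbx2, Tbx3, Tbx5 or Foxf1. A match is a run of letters and not a measured binding site.

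Gata6 was found in every wall type, with its highest mean in blood ECs. Levels are given as CPM (counts per 1000000 UMIs, summed over the cells of a type in a library). In blood ECs Gata6 was at 285 and 342 CPM in the young libraries and at 371, 274, 388 and 669 CPM in old 1 to old 4. In mesothelial cells it was at 192 CPM in young 1 and at 192, 405, 266 and 320 CPM in old 1 to old 4. In SMCs it was at 95.7, 395, 97.4, 165 and 305 CPM in young 1, young 2, old 1, old 3 and old 4, and in FBs at 37.4, 95.6, 104, 130, 148 and 181 CPM in young 1, young 2 and old 1 to old 4. The mean over libraries thus fell from blood ECs (388 ± 145 CPM, SD, n = 6) to mesothelial cells (275 ± 90.5, n = 5), SMCs (212 ± 133, n = 5) and FBs (116 ± 49.4, n = 6), and neighbours in this order overlapped. Outside these types, lymphatic ECs had 157 ± 106 CPM (n = 3, 90.1 to 279 CPM). Macrophages or monocytes had 44.3 ± 58.3 CPM (n = 6, 0 to 135 CPM), and airway epithelial cells 32.6 ± 16.2 CPM (n = 6, 14.1 to 55.1 CPM). After thinning each cell to 500 UMIs, 16.2% of blood ECs, 11.4% of SMCs and 6.46% of FBs had a Gata6 UMI, against 0.1004% of lymphocytes. Unthinned, the shares were 46.4%, 77.9%, 42.4% and 0.535%, at median depths of 1970, 8502.5, 4562.5 and 788 UMIs. Most lymphocytes came from young 1 and old 2. Free RNA, read from barcodes with 5 to 100 UMIs, held 33.2, 26.7, 109, 25.9, 58.7 and 53.3 CPM of Gata6 in young 1, young 2 and old 1 to old 4. SMCs and FBs of old 1 did not exceed the free RNA of their library, and FBs of young 1 lay near it. The airway epithelial levels lay within or below the range of free RNA. Nothing is read from these levels on their own.

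Tbx20 was carried by SMCs, FBs and blood ECs and was low in mesothelial cells. In SMCs it was at 191, 87.8, 32.5, 30.3 and 71.0 CPM in young 1, young 2, old 1, old 3 and old 4, where the young values rest on 4 and 2 counts. In FBs it was at 37.4, 0, 42.6, 155, 65.5 and 56.1 CPM in young 1, young 2 and old 1 to old 4. Blood ECs had 0, 68.4, 31.1, 35.1, 57.7 and 63.0 CPM in the same order. These 3 types overlapped, whereas mesothelial cells had 0 to 17.97 CPM. Lymphatic ECs had 1 Tbx20 count in 103 cells. Erythroid cells had 12.9 to 192 CPM over 2 libraries, from 13 counts in all. Free RNA, read from barcodes with 5 to 100 UMIs, held 5.87 to 32.9 CPM of Tbx20. Mesothelial cells lay below the free RNA of their library in young 1, old 1 and old 2. They lay above it in old 3 (13.9 against 5.87 CPM, the latter from 1 count) and old 4 (17.97 against 10.2 CPM). In barcodes with 1 to 50 UMIs, free RNA of old 3 and old 4 held 10.3 and 18.4 CPM. The top of the range, 32.9 CPM, was that of old 1, where SMCs (32.5 CPM) and blood ECs (31.1 CPM) did not exceed it.

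Hand2 had counts in SMCs, blood ECs, mesothelial cells and FBs. Blood ECs had 0, 22.8, 60.3, 21.04, 44.6 and 22.0 CPM in young 1, young 2 and old 1 to old 4. SMCs had 95.7, 43.9, 58.5, 14.9 and 33.5 CPM in young 1, young 2, old 1, old 3 and old 4, the first 2 from 2 and 1 counts. Mesothelial cells had 51.7 CPM in young 1 and 31.1, 0, 66.5 and 96.4 CPM in old 1 to old 4. FBs had no Hand2 count in either young library and 18.6, 30.0, 18.9 and 34.6 CPM in old 1 to old 4. All 4 types overlapped. Free RNA held 16.6, 17.6 and 12.6 CPM of Hand2 in old 1, old 3 and old 4 and 1.80 to 2.70 CPM in the other libraries. The level of old 3 rests on 3 counts and was 13.1 CPM in barcodes with 1 to 50 UMIs. SMCs of old 3 and FBs of old 1 and old 3 lay near the free RNA of their library, so nothing is read from these 3 levels on their own. After thinning, 1.93% of blood ECs, 1.76% of mesothelial cells, 1.65% of SMCs and 0.964% of FBs had a Hand2 UMI, against none of 2989 lymphocytes (unthinned, 6.70%, 11.9%, 16.3%, 9.07% and 0.0669%). Lymphatic ECs had 0 Hand2 counts, and the share of such cells with a Hand2 UMI was 0 of 103 (95% exact binomial interval up to 3.52%). This interval treats pooled cells as independent and does not cover the spread between mice. Of these cells, 65 came from old 3, 25 from old 4 and 10 from old 1.

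Tbx5 was a factor of FBs, SMCs and mesothelial cells and was nearly absent from blood ECs. In FBs it was at 37.4, 47.8, 21.3, 70.1, 24.2 and 39.9 CPM in young 1, young 2 and old 1 to old 4, and every library had a count. In SMCs it was at 47.9, 0, 6.49, 29.2 and 26.5 CPM in young 1, young 2, old 1, old 3 and old 4. The young values rest on 3 and 1 counts in FBs and on 1 and 0 counts in SMCs. Mesothelial cells had 14.2 to 38.8 CPM. Blood ECs had 9 counts in 2119 cells, with 28.1 CPM in old 2 from 4 counts and at most 1.42 CPM in the other libraries. In free RNA Tbx5 was at 3.51 to 24.0 CPM, and 12.8 CPM in old 2.

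Tbx2 was highest in SMCs of the old libraries. It was at 15.2, 31.8 and 30.5 CPM in the SMCs of old 1, old 3 and old 4, from 7, 192 and 675 counts, and at 0 in both young libraries, where 3 counts would have been 144 and 132 CPM. FBs had 0, 4.55 and 9.52 CPM in the same 3 old libraries. SMCs were therefore 7.003-fold above FBs in old 3 (95% counting interval 4.57 to 11.2), 3.20-fold in old 4 (2.18 to 4.90) and at least 1.90-fold in old 1 against a floor of 3 counts. Such intervals cover counting error only. Mesothelial cells had 3.27 to 25.9 CPM, the highest in young 1. After thinning, 1.80% of SMCs had a Tbx2 UMI, against 0.340% of FBs and none of 2989 lymphocytes (unthinned, 21.8%, 2.27% and 0.0669%).

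Tbx3, the closest relative of Tbx2 among the T-box genes, had another distribution. Blood ECs had 16.8, 0, 1.83, 0, 57.4 and 13.4 CPM of Tbx3 in young 1, young 2 and old 1 to old 4, so that 1 library, old 3, supplied 162 of 180 counts. SMCs had 4.33, 13.1 and 17.2 CPM in old 1, old 3 and old 4, and FBs had 13.3, 7.01 and 13.1 CPM in the same libraries. Mesothelial cells had 3 counts.

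Tbx4 had 79 counts over all cells, of which 47 were in FBs. The mean over libraries was 3.59 ± 4.38 CPM in FBs (SD, n = 6) and 5.82 ± 4.25 CPM in mesothelial cells (n = 5), the latter from 10 counts. Mesothelial cells had 8.62 CPM in young 1 and 10.4, 7.10, 2.98 and 0 CPM in old 1 to old 4. FBs had 10.6, 4.92 and 5.996 CPM of Tbx4 in old 1, old 3 and old 4, from 4, 26 and 17 counts, and 0 in the other 3 libraries. SMCs had 0, 0.8289 and 0.271 CPM in old 1, old 3 and old 4. The ratio of SMCs to FBs was 0.168 in old 3 (95% counting interval 0.0505 to 0.445) and 0.0452 in old 4 (0.0146 to 0.120). Free RNA of young 1 held 12.2 CPM of Tbx4, a level above that in any FB or mesothelial profile.

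Meox2 was carried by FBs, by blood ECs and, at a lower level, by SMCs. FBs had 12.5, 0, 18.6, 30.0, 22.0 and 23.3 CPM in young 1, young 2 and old 1 to old 4. Blood ECs had 0, 45.6, 0.609, 14.03, 27.97 and 37.2 CPM in the same order. The FB value of young 1 rests on 1 count, and the blood EC values of young 2, old 1 and old 2 on 2, 1 and 2 counts. Free RNA, read from barcodes with 5 to 100 UMIs, held 4.06 to 11.6 CPM of Meox2. The top of this range was that of young 1, near the level of its FBs. SMCs had 9.45 CPM in old 3 and 9.31 CPM in old 4, below FBs of the same mice, and no count in young 1, young 2 or old 1. Mesothelial cells had 2 Meox2 counts in 796 cells. Lymphatic ECs, which had no count of Tbx2, Tbx3, Tbx4 or Hand2, had 30.0, 27.6 and 25.3 CPM of Meox2 in old 1, old 3 and old 4, from 1, 12 and 4 counts.

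**Figure D1:**
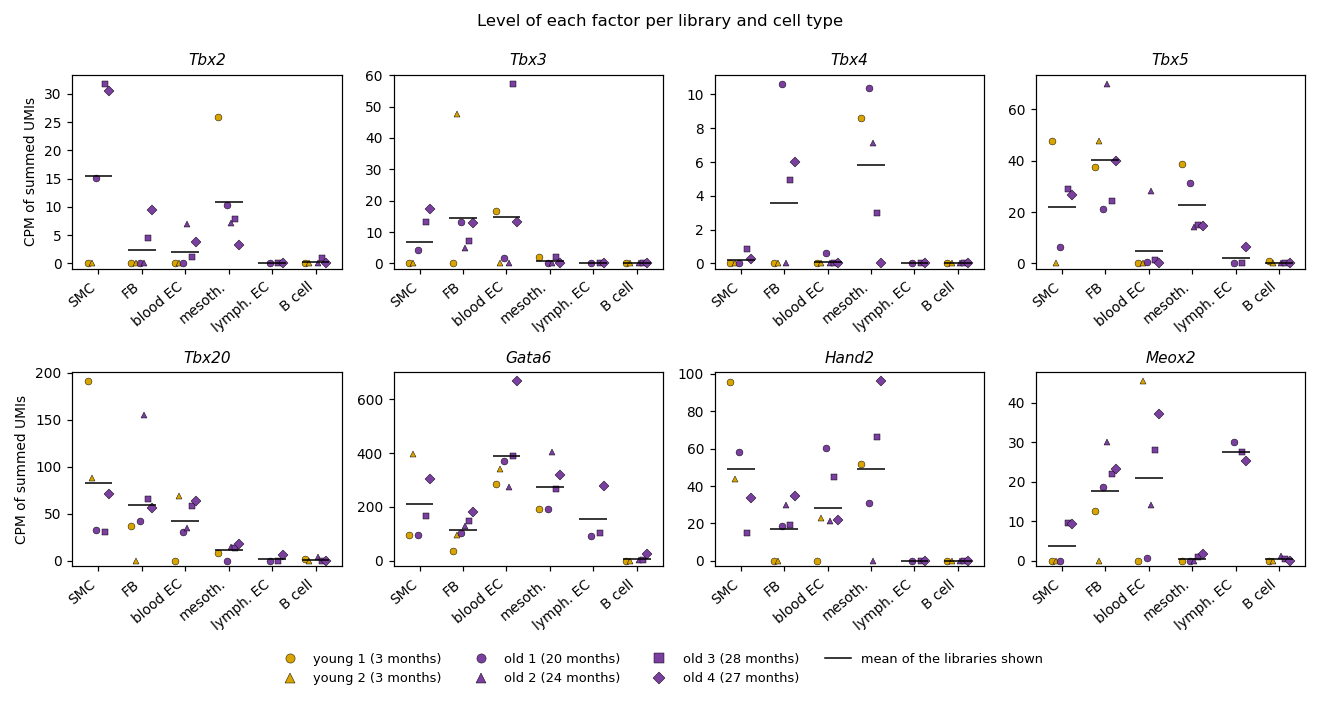
Level of each counted factor in CPM (vertical axis, linear, own scale per panel) by cell type (horizontal axis), 1 point per library with at least 10 cells of the type and a line at the mean over libraries. Gata6 points lie between 274 and 669 CPM in blood ECs, and Tbx2 points above 15 CPM in SMCs come from old libraries.

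Cell types were compared within mice by edgeR's quasi-likelihood test on counts summed per library and type, with library as a block and p-values adjusted over all genes tested by the Benjamini-Hochberg method. Between SMCs and FBs, 38.8% of 9834 genes passed an adjusted p under 0.05, 20.7% with a lower level in SMCs, and 1 of the 6 factors that passed the filter on low values did. Meox2 was lower in SMCs by a log2 fold change of -1.31 ± 0.26 (SE, n = 5 mice, edgeR adjusted p = 4.43e-06), with no Meox2 count in the SMCs of young 1, young 2 or old 1. Gata6 had a log2 fold change of 0.48 ± 0.26 (edgeR adjusted p = 0.138) and Tbx3 of 0.55 ± 0.29 (edgeR adjusted p = 0.119). Hand2 (0.15 ± 0.22), Tbx20 (-0.23 ± 0.21) and Tbx5 (-0.21 ± 0.22) did not pass either. The fit weights deep libraries more, and for Tbx3 and Tbx20 its sign is opposite to that of the difference of the unweighted means. Tbx2 and Tbx4 were removed by the filter. With no filter beyond 1 count both passed in edgeR, Tbx2 higher in SMCs by 2.56 ± 0.30 (edgeR adjusted p = 1.61e-16) and Tbx4 lower with a log2 fold change of -3.32 ± 0.69 (edgeR adjusted p = 1.57e-05). Without old 4, Meox2 was at -1.37 and its edgeR adjusted p was 0.112.

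Between blood ECs and FBs, 35.8% of 8907 genes passed, 16.9% higher and 18.8% lower in blood ECs, and of the 5 factors tested Gata6 and Tbx5 did. Gata6 was higher in blood ECs by a log2 fold change of 1.58 ± 0.20 (SE, n = 6 mice, edgeR adjusted p = 8.72e-08), and its CPM was higher in 6 of 6 mice. In young 2 the 95% counting interval of the ratio was 0.832 to 32.3, from 15 and 2 counts. Tbx5 was lower by a log2 fold change of -4.09 ± 0.45 (edgeR adjusted p = 9.95e-09), and its CPM was lower in 6 of 6 mice. In young 1, young 2 and old 2 this rests on 0, 0 and 4 blood EC counts against 3, 1 and 14 FB counts. The 95% counting intervals of the ratio reached 3.26, 18.6 and 1.275 there, so these mice alone do not show the difference. Tbx5 was tested only because FBs, where it is high, carried it past the filter, with over 5% of cells in 4 of 6 FB profiles and in 0 of 6 blood EC profiles. With no filter beyond 1 count it was at -3.99 ± 0.45 (edgeR adjusted p = 2.87e-17). Hand2 (0.55 ± 0.34), Tbx20 (-0.43 ± 0.28) and Meox2 (0.05 ± 0.42) did not pass. Hand2 passed without old 4, at 1.10 (edgeR adjusted p = 0.0137). The ratio of Hand2 between ECs and FBs ranged over mice, at 3.24 in old 1 (95% counting interval 1.51 to 8.26), 2.36 in old 3 (1.80 to 3.09) and 0.635 in old 4 (0.385 to 1.01).

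Between mesothelial cells and FBs, 30.6% of 10173 genes passed, 17.0% higher and 13.5% lower in mesothelial cells, and of the 5 factors tested all but Tbx5 did. Gata6 was higher in mesothelial cells by 1.05 ± 0.19 (log2, SE, n = 5 mice, edgeR adjusted p = 0.000129) and Hand2 by 1.43 ± 0.38 (edgeR adjusted p = 0.0115). Tbx20 was lower by a log2 fold change of -2.30 ± 0.31 (edgeR adjusted p = 5.45e-06) and Meox2 of -4.46 ± 0.60 (edgeR adjusted p = 4.83e-06). Meox2 passed the filter only through FBs, where it is high, with over 5% of cells in 3 of 5 FB and 0 of 5 mesothelial profiles, and Tbx20 with 4 FB and 2 mesothelial profiles. With no filter beyond 1 count Meox2 was at -4.69 ± 0.70 (edgeR adjusted p = 5.07e-10) and Tbx20 at -2.54 ± 0.33 (edgeR adjusted p = 8.39e-13). Tbx5 was at -0.85 ± 0.32 (edgeR adjusted p = 0.0518). The Hand2 call was lost without old 3 (1.08, edgeR adjusted p = 0.177), without old 4 (1.20, edgeR adjusted p = 0.205) and in DESeq2 (1.00, adjusted p = 0.312).

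**Figure D2:**
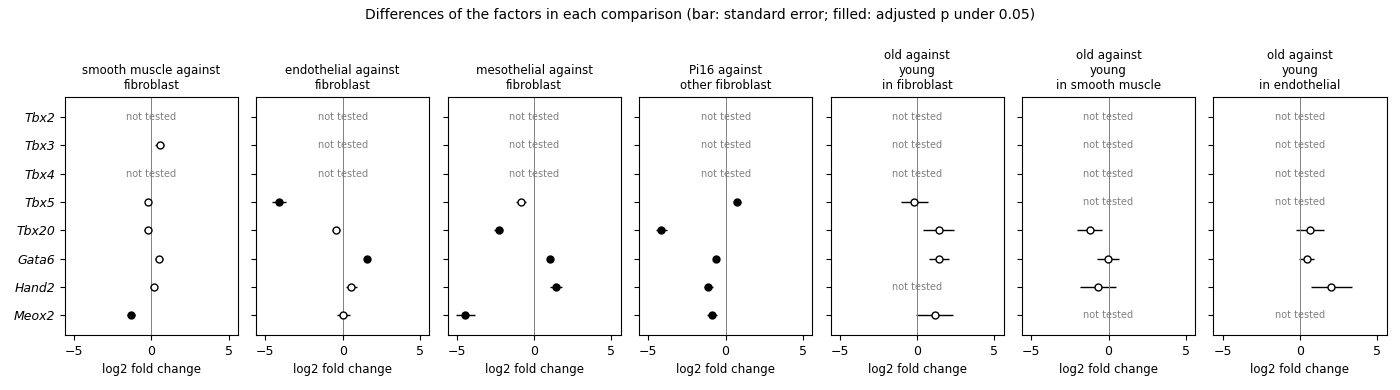
Log2 fold change of each tested factor (horizontal axis) in the 7 comparisons, with bars for the standard error and filled points where the edgeR adjusted p was under 0.05. Gata6 and Tbx5 are filled on opposite sides for blood ECs against FBs, at 1.58 and -4.09, and no point is filled in the 3 comparisons of old with young.

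Among FBs, the cells named Pi16 FBs from markers such as Pi16 and Dpp4, a stem-like adventitial population, had little Tbx20. Pi16 FBs had 0, 5.46 and 5.33 CPM of Tbx20 in old 2, old 3 and old 4, the 3 mice with at least 10 such cells, while other FBs of the same mice had 173, 103 and 81.2 CPM. The groups did not overlap. In old 2, however, the 0 rests on 17 Pi16 FBs with 20716 UMIs. The counting interval of the ratio of Pi16 to other FBs was 0 to 1.09 there, so old 2 alone does not show the difference. In edgeR the log2 fold change was -4.15 ± 0.33 (SE, n = 3 mice, edgeR adjusted p = 2.35e-33), where 10.2% of 9355 genes passed, 3.9% higher and 6.34% lower. Tbx20 entered that fit only through the other FBs, where it is high, with over 5% of cells in 3 of 3 of their profiles and in 0 of 3 Pi16 profiles. With no filter beyond 1 count it was at -4.16 ± 0.32 (edgeR adjusted p = 4.24e-35). The other 4 factors tested also passed, with Hand2 (-1.12), Meox2 (-0.88) and Gata6 (-0.59) lower and Tbx5 (0.74) higher in Pi16 FBs. However, the fit has 2 residual degrees of freedom, so its p-values rest largely on a spread pooled over genes. Only the Tbx20 call was kept in DESeq2. Without old 3 or without old 4 none of the factors tested passed, and Tbx20 could not be tested with any mouse left out, since it no longer passed the filter on low values. The difference of Tbx20 also leaned on few cells, since 14 cells of 1 sub-cluster supplied 250 of the 335 counts of other FBs in old 3. Without that sub-cluster other FBs had 174, 26.9 and 81.8 CPM of Tbx20 in old 2, old 3 and old 4. These levels were still above the Pi16 FBs of each mouse, with the limit given above for old 2. Not every FB with Pi16 was on the Pi16 side. A sub-cluster led by Hbb-bs (229 cells), with Ly6c1 and Pi16 among its leading genes, was counted with the other FBs. It held 6.36% of 346 FB counts of Tbx20 in 6.98% of the FB UMIs of old 3. In old 4 it held 4.40% of 159 in 3.92%. Low Tbx20 is therefore read only for the cells named Pi16 FBs in old 3 and old 4.

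Sub-clusters of each type were made without the factors and are described with no test. Among SMCs of old 3 and old 4, Hand2 and Tbx20 were higher in one large sub-cluster than in another, where Meox2, Tbx5 and Tbx2 were the higher ones. The SMC sub-cluster led by Col14a1, Pcdh9 and Tnnt2 (851 cells) had 67.2, 62.5 and 83.7 CPM of Hand2 in old 1, old 3 and old 4, and the one led by Rgs5, Pdzrn4 and Vcan (925 cells) had 0, 1.04 and 3.81 CPM. Tbx20 was at 67.2, 69.5 and 140 CPM in the Col14a1 sub-cluster and at 24.6, 22.9 and 33.0 CPM in the Rgs5 sub-cluster. In old 1 the Rgs5 sub-cluster had 16 cells with 8.80% of the SMC UMIs, no Hand2 count and 1 Tbx20 count. The order of the 2 sub-clusters is therefore read only in old 3 and old 4. For Hand2, the Col14a1 sub-cluster held 88.9% of 90 counts in 21.2% of the SMC UMIs of old 3 and 80.3% of 742 counts in 32.2% of the UMIs of old 4. In old 1 it held 29.6% of 27 Hand2 counts in 25.8% of the UMIs, and the sub-cluster led by Peak1, with 32 cells in that mouse, had more Hand2, at 106 CPM from 11 counts. For Tbx20 it held 48.6% of 183 counts in old 3 and 63.5% of 1572 in old 4.

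Meox2, Tbx5 and Tbx2 had the opposite order in old 3 and old 4. Meox2 was at 0, 19.3 and 25.5 CPM in the Rgs5 sub-cluster and at 0, 0.781 and 1.40 CPM in the Col14a1 sub-cluster of old 1, old 3 and old 4. Tbx5 was at 24.6, 42.2 and 47.1 CPM against 0, 16.4 and 6.32 CPM, and Tbx2 at 24.6, 45.3 and 41.2 CPM against 0, 9.37 and 17.6 CPM, where values of old 1 rest on 1 count or none. The Rgs5 sub-cluster held 28.9% of the UMIs of SMCs, 75.3% of the Meox2 counts and 49.5% of the Tbx5 counts. Gata6 was close in both, at 171 and 332 CPM against 159 and 300 CPM in old 3 and old 4. A large SMC sub-cluster led by Ptprz1 and Egr1 (936 cells) had 27.1, 31.8 and 33.0 CPM of Tbx2 and 33.9, 1.90 and 5.36 CPM of Hand2 in old 1, old 3 and old 4, where the values of old 1 rest on 4 and 5 counts.

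Markers of other cells were read in these SMCs. The summed level of 10 pericyte markers was 2178 CPM in the Rgs5 sub-cluster, 878 CPM in the Col14a1 sub-cluster and 933 CPM in the Ptprz1 sub-cluster, with Rgs5 itself on that list. The 10 cardiomyocyte markers summed to 947, 828 and 781 CPM in the same order, with Myh6, Nppa and Mybpc3 at 0 in the Col14a1 sub-cluster. The 10 SMC markers summed to 29832, 32973 and 33210 CPM. Their part in the split of the factors was not tested.

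Blood ECs split by factor as well. The sub-cluster led by Fabp4, Cd36 and Gpihbp1 (212 cells), which handle lipid in capillaries, had 349 and 158 CPM of Tbx3 and 170 and 441 CPM of Meox2 in old 3 and old 4, where it had at least 10 cells. It held 9.55% of the UMIs of blood ECs, 95.6% of their Tbx3 counts and 94.3% of their Meox2 counts. Gata6, at 388 and 669 CPM in all blood ECs of these mice, was at 19.9 and 11.3 CPM there, and Hand2 had no count. Among its leading genes was Tcf15, which encodes a partner of Meox2 in the endothelium of the heart. The 10 erythroid markers summed to 20362 CPM in it and to 5475 CPM in the sub-cluster described next, and their part in these levels was not tested. The sub-cluster led by Efna5, Ptprj and Eln (583 cells) had 383, 487 and 757 CPM of Gata6 in old 1, old 3 and old 4, with at most 10.3 CPM of Tbx20 and 4.02 CPM of Hand2 in these mice.

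Most Hand2 and Tbx20 counts of the blood ECs of old 3 and old 4 were in a sub-cluster led by Epha7, Dcn and Fgf14 (190 cells). Tbx20 was at 80.6, 269 and 389 CPM and Hand2 at 169, 217 and 134 CPM there in old 1, old 3 and old 4. It held 82.2% of 163 Tbx20 counts and 85.7% of 126 Hand2 counts in 17.7% of the blood EC UMIs of old 3, and 97.0% of 66 and 95.7% of 23 in 15.7% of those of old 4. In old 1 it held 21.6% of 51 and 23.2% of 99 in 8.31% of the UMIs. A sub-cluster led by Lsamp, Rasef and Prox1 (172 cells, of which 138 came from old 1) held 52.9% and 49.5% there in 23.8% of the UMIs, at 69.2 CPM of Tbx20 and 126 CPM of Hand2. The summed level of 10 FB markers was 5871 CPM in the Epha7 sub-cluster, against 890 CPM in the Efna5 sub-cluster, and the summed level of 10 blood EC markers was 8401 and 10779 CPM. The FB markers ranged from 2527 to 6536 CPM over mice, and the Epha7 cells had a median of 3110.5 UMIs, against 3634 in the Efna5 sub-cluster. FBs of old 1, old 3 and old 4 had 18.6, 18.9 and 34.6 CPM of Hand2 and 42.6, 65.5 and 56.1 CPM of Tbx20. The part of FB markers in these levels was not tested.

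Among FBs, Tbx4 and Tbx2 had their main source in 31 cells. This sub-cluster, led by Col23a1, Aqp1 and Robo2 and with Hhip and Mylk among its leading genes, had 225 and 182 CPM of Tbx4 and 150 and 218 CPM of Tbx2 in old 3 and old 4, from 11 and 16 cells. It held 1.59% of the UMIs of FBs, 57.4% of their Tbx4 counts and 51.0% of their Tbx2 counts. Tbx4 had a UMI in 18 of its 31 cells and Tbx2 in 15. Tbx3 was at 56.4 and 97.0 CPM, whereas Hand2 and Tbx20 had no count, a limit of 3 counts being 21.5 CPM over the sub-cluster. The summed level of 10 SMC markers in it was 875 CPM, far below that of SMCs, with 2 of the 10 at 0.

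A group of 28 FBs led by Erbb4, Tbx20 itself, Cd74 and Clu held 47.0% of all Tbx20 counts of FBs. In old 3, the 14 cells had 2372 CPM of Tbx20 and 152 CPM of Hand2, and no Meox2 or Tbx2 count. Only old 3 had at least 10 of these cells. The 10 markers of macrophages summed to 1064 CPM in this group, with none at 0, and their part in it was not tested. The sub-cluster led by Sntg1, Nkain2 and Dmd (200 cells) had 33.7 and 69.9 CPM of Hand2 and 35.8 and 26.9 CPM of Meox2 in old 3 and old 4, with 3.07 and 10.8 CPM of Tbx5.

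In the mesothelium, the sub-cluster led by Myl7, Npr3 and Gpx3 (204 cells) held 50.6% of 156 Hand2 counts, at 104, 0, 131 and 135 CPM in young 1, old 2, old 3 and old 4. Of the other 5 sub-clusters, 4 had 33.9 to 71.6 CPM of Hand2 over all libraries, and 1 of these reached 103 CPM in old 4. The sub-cluster with Clec3b and Wnt5b among its leading genes (200 cells) had 14.6, 0 and 0 CPM of Hand2 in young 1, old 2 and old 3. Tbx2 went the other way, at 7.44, 25.5 and 7.92 CPM in the Myl7 sub-cluster and at 65.5, 0 and 59.6 CPM in the other, from 9 counts in young 1 and 2 in old 3. Myl7 is a gene of atrial muscle, and the 10 cardiomyocyte markers summed to 720 CPM in the Myl7 sub-cluster with 6 of the 10 at 0.

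The young libraries were compared with the old ones in each wall type, and no factor passed. The filter asks for 3 profiles, so no gene could enter through the 2 young libraries alone. In FBs, Tbx5, Tbx20 and Meox2 entered only through the old, with 4, 4 and 3 of 4 old and 0 of 2 young profiles. In blood ECs, Tbx20 and Hand2 did too, each with 3 of 4 old and 0 of 2 young profiles. With no filter beyond 1 count, 0 of 8 factors passed in each type. In FBs, 0 of 4 factors tested passed where 0.0447% of 6711 genes did, 0.0149% higher and 0.0298% lower in the old. Gata6 was at 37.4 and 95.6 CPM in the young FBs and at 104 to 181 CPM in the old ones, so the groups did not overlap, but the young values rest on 3 and 2 counts. Its log2 fold change was 1.43 ± 0.63 (edgeR adjusted p = 0.761). Tbx20 (1.40 ± 0.99), Meox2 (1.14 ± 1.19) and Tbx5 (-0.19 ± 0.86) had larger errors relative to their size. In SMCs, 0 of 3 factors passed where 0.0302% of 6631 genes did, with Tbx20 at -1.23 ± 0.79, Hand2 at -0.68 ± 1.15 and Gata6 at -0.06 ± 0.72. In blood ECs, 0 of 3 passed where 0.0% of 5835 genes did, with Hand2 at 2.04 ± 1.34, Tbx20 at 0.66 ± 0.92 and Gata6 at 0.43 ± 0.50. Apart from Gata6 in FBs, no factor had an unadjusted edgeR p under 0.05 in these fits, and DESeq2 called none. Over all genes, 428, 554 and 337 had an unadjusted p under 0.05 in FBs, SMCs and blood ECs.

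A value of 3 counts was 144 and 132 CPM in the SMCs of young 1 and young 2, 37.4 and 143 CPM in their FBs and 50.4 and 68.4 CPM in their blood ECs. A change with age in the low factors was therefore not detectable at this depth. Both young libraries and old 2 also shared barcodes, so in FBs and blood ECs age and that set of libraries cannot be told apart except through old 2. In SMCs, where old 2 was not in the fit, they cannot be told apart at all. With this set as a covariate, Gata6 in blood ECs moved to -0.11 and Tbx5 in FBs to 0.98, and neither passed.

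Other regional factors of mesoderm differed between types in both directions. Between SMCs and FBs, 16 of 55 such factors were tested, 5 were higher in SMCs and 6 lower, where 18.2% of all genes tested were higher and 20.7% lower. Mef2c (2.19), a factor of muscle, Foxc1 (1.81) and Tbx18 (1.47), a factor of mural cells and epicardium, were the largest rises in log2 fold change, and Twist2 (-3.31), Tcf21 (-2.98) and Prrx1 (-1.73), factors of fibroblasts, the largest falls. The median of the 16 was -0.03, as was that of all genes tested. Between blood ECs and FBs, 5 of 16 were higher and 6 lower, where 16.9% and 18.8% of all genes were, led by Gata2 (7.27) and Gata3 (3.73) on the one side and by Tcf21 (-7.95), Prrx1 (-6.70) and Twist2 (-6.37) on the other.

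Of 25 signals of the lung mesenchyme, 18 were tested between SMCs and FBs, and 11 were lower in SMCs and 3 higher, beside 20.7% lower and 18.2% higher of all genes, with a median log2 fold change of -1.42 beside -0.03 over all genes tested. Wnt2 (-6.79), Sfrp1 (-5.46) and Wnt11 (-4.60), genes of the Wnt pathway, were the largest falls, and the receptors Bmpr1a (1.03) and Fgfr2 (0.68) and the ligand Tgfb2 (0.66) the 3 that were higher. In blood ECs against FBs, 10 of 18 were lower (18.8% of all genes), led by Wnt5a (-6.04), Sox9 (-4.60) and Gli1 (-3.55), and 3 were higher (16.9% of all genes), namely Bmp4 (4.26), Bmpr2 (1.03) and Vegfa (1.02). In mesothelial cells against FBs, 6 of 19 were lower and 4 higher, with a median of -0.23 beside 0.08 over all genes tested, of which 13.5% were lower and 17.0% higher. All these calls had an edgeR adjusted p under 0.05. Some genes named here and among the other regional factors can have passed the filter only through the type where they are high. Mean levels of Wnt2 were 0.0452 CPM in SMCs and 38.2 CPM in FBs. Those of Wnt5a were 0.904 CPM in blood ECs and 117 CPM in FBs, and those of Gata2 142 and 0.425 CPM. The numbers of calls in these lists carry that limit too.

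Transcripts next to the factors were read from a list of 15, of which 11 had a count. Hand2os1, the antisense neighbour of Hand2, was higher in blood ECs than in FBs, where Hand2 itself did not pass, by 1.47 ± 0.24 (log2, SE, edgeR adjusted p = 5.85e-06), and in SMCs it was at -0.79 ± 0.23 against FBs (edgeR adjusted p = 0.00175) although its unweighted mean was 32.0 CPM in SMCs and 17.7 CPM in FBs. Gata6os was higher than in FBs in both SMCs (0.61 ± 0.21) and blood ECs (1.33 ± 0.31). Gm15417 was higher in SMCs (0.71 ± 0.22) and lower in blood ECs (-1.33 ± 0.29), and Agmo, the gene beside Meox2, was lower in both (-3.06 ± 0.24 and -1.26 ± 0.23). Fendrr, which neighbours Foxf1, had 436 counts, with 10.0 CPM in SMCs, 8.99 CPM in FBs and 6.95 CPM in blood ECs over all libraries, and Mthfsd had 811. Hoxaas2 and Hoxaas3, in the Hoxa cluster, had 636 and 362 counts. Tbx3os1 had 192 counts and Bcas3, beside Tbx2, had 8237. The strand setting of the counting is not given in the sources used here. Within 500 kb of Foxf1, 5 of 6 protein-coding genes on its strand and 0 of 7 on the opposite strand were at 0. Near Hoxa5 it was 4 of 14 and 1 of 2. Whether reads of a factor and its antisense neighbour were kept apart was not tested.

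The genes whose pattern was most like that of each factor were sought over 40 profiles of 12 cell types and 6 libraries by Pearson's r of log2(CPM + 10) among 15780 genes, as a description. Profiles of 1 library share their depth and those of 1 type share their cells. Hand2 was most like Hand2os1 (r = 0.88) and then Hdnr and Fkbp7. Tbx20 was most like Itgbl1 (0.89), Gpc6 and Uchl1, Gata6 like Tm4sf1 (0.89), Plpp1 and Armcx1, and Meox2 like Tmod2 (0.88), Adgra2 and Cxcl12. Tbx5 was most like Col6a1 (0.88), Gli1 and Col3a1, genes of matrix and of the hedgehog pathway. Tbx2 was most like Atp1b2 (0.86), Gabrq and Daam2, and Tbx3 like Mir100hg (0.79), Hoxa2 and Smoc1, the lowest r of the 7. Tbx4 had fewer than 100 counts and was not compared.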

How the data were processed

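Libraries of single cells from proximal PAs of 6 mice (4 old, 2 young, grouped by the ages in the labels) were used. The authors trimmed reads with cutadapt, aligned them to GRCm38.p6 with STAR and counted UMIs with STARsolo (versions are not given in the sources used here), and the deposited values are raw counts per gene and barcode, unfiltered and not normalized. The members and gene lists were chosen with earlier results of these data known.

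Of 15622 barcodes that passed the limits on UMIs, genes and mitochondrial share, 213 were removed as likely doublets, called by Scrublet or, in the 3 libraries where it marked under 0.5%, set to the barcodes of highest doublet score, 0.8% for every 1000 barcodes. Cells were clustered in scanpy 1.11.5 (2000 variable genes without the listed genes, 40 components, 15 neighbours, leidenalg 0.10.2 at resolution 1.0) and each wall type again at 0.6. A cluster was named where over 40% of a type's 10 markers were raised 2-fold. Sub-clusters with 3 or more markers of another type among their 10 leading genes, and more than of their own, were left out (276 cells). Both limits were set after the clusters were seen, and 1366 cells stayed unnamed.

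Counts were summed per library and type, libraries with under 10 cells left out, and tested in R 4.3.3 with edgeR 4.0.16 (TMM normalization and a robust quasi-likelihood F test, with p-values adjusted by the Benjamini-Hochberg method over all genes seen in more than 5% of cells of 3 or more profiles). Library was a block between types, because both types came from the same mouse. The standard error is the log2 fold change divided by the root of F. The model was tested on counts simulated from each gene's mean and the fit's own dispersion, with the library sizes kept. These counts hold no difference between libraries beyond that dispersion, so the test does not cover the real spread between mice. Mice are the replicates. The quasi-likelihood test pools the spread between them over genes, so a p-value does not rest on that gene's own spread alone. All 10 members are named, beside the 3 largest called differences in each direction of each list in SMCs or blood ECs against FBs, neighbours with at least 50 counts and the 3 genes most like each member with at least 100 counts. Sub-clusters were chosen for description after their values were seen. Alternatives were other limits on cells, doublets kept, clusters with the listed genes, thinning to 500 UMIs, other gene filters, library size alone, DESeq2 1.42.0, no block, and leaving out libraries. Keeping the sub-clusters led by another type was added after the data were seen.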

Additional observations from a re-analysis of the deposited data

Results flagged for a closer look

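In 24 groups of 4 old libraries (8 factors in blood ECs, FBs and mesothelial cells), 4 held a library far from the other 3 by Dixon's ratio at the 95% level. For normally spread values about 1 in 20 groups would be expected to by chance. That rate does not hold for counts this sparse, so no excess is read from the number flagged. Tbx5 in blood ECs was at 28.1 CPM in old 2, from 4 counts, against 0 to 1.42 CPM in the other old libraries. Tbx5 in mesothelial cells was at 31.1 CPM in old 1, from 6 counts, against 14.2 to 14.9 CPM. Tbx3 in mesothelial cells was at 1.99 CPM in old 3, from 2 counts, and Tbx4 in blood ECs was at 0.609 CPM in old 1, from 1 count, with 0 in the other 3 in both cases. All 4 values rest on 6 counts or fewer. Where the other 3 libraries are at 0, any count gives a ratio of 1.0.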

How the results depend on the processing

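The number of factors that passed between SMCs and FBs was 1 and became 0 after thinning to 500 UMIs, 2 with filterByExpr (Gata6 at an adjusted p of 0.0494), 3 with no gene filter and 0 to 2 when a mouse was left out (0 without old 4, 2 without old 1, when Tbx3 passed at 0.66, edgeR adjusted p = 0.0402). Between blood ECs and FBs, 2 became 1 after thinning, 4 with no gene filter (Tbx3 at 1.33 and Tbx4 at -4.61 added) and 2 to 3 when a mouse was left out. Between mesothelial cells and FBs, 4 became 1 after thinning and 2 to 5 when a mouse was left out (2 without old 3 and without old 4). Between Pi16 and other FBs, 5 became 3 when the listed genes entered the clustering, 0 after thinning, 1 in DESeq2, 1 with no replicate block, 0 without old 3, 0 without old 4 and 4 without old 2. For old against young the number was 0 under every alternative run.

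The block was the library, since both types came from 1 mouse. With no replicate block Tbx20 between SMCs and FBs reversed to 0.0826 and Meox2 between blood ECs and FBs to -0.21, Hand2 in mesothelial cells lost its call (1.17, adjusted p = 0.155), and the number of factors called was 1 for SMCs, 2 for blood ECs and 3 for mesothelial cells. No paired analysis was possible because the labels pair no young with an old mouse. Other reversals, none of them called, were Tbx20 in SMCs against FBs in DESeq2 (0.0739), Meox2 in blood ECs against FBs at 10% mitochondrial UMIs (-0.0524), with filterByExpr (-0.13) and in DESeq2 (-0.61), and for old against young Tbx5 in FBs with at least 1000 UMIs (0.0166), no filter (0.22), the covariate (0.98) or the 3 sharing libraries alone (0.61), Meox2 in FBs with at least 1000 UMIs (-0.47), Hand2 in SMCs with no filter (0.0457), Gata6 in SMCs with filterByExpr (0.0709) or no filter (0.69), and Gata6 in blood ECs with the covariate (-0.11) or the 3 sharing libraries (-0.19). With a mouse left out, sign changes fell within -0.91 to 0.0936 for Tbx5, -0.0645 to 0.72 for Hand2 and -0.33 to 0.25 for Tbx20 in SMCs against FBs, -0.51 to 0.33 for Meox2 in blood ECs against FBs, and, for old against young, -0.46 to 0.14 for Tbx5 in FBs, -0.74 to 1.42 for Gata6 in SMCs and -0.47 to 8.80 for Tbx20 in blood ECs. The causes were not tested.

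Gata6 and Tbx5 in blood ECs, and Gata6, Tbx20 and Meox2 in mesothelial cells, kept their direction and call against FBs in every alternative in which each could be tested. Tbx5 in mesothelial cells passed in 7 alternatives. Unthinned, the share of cells with a UMI was 21.8% for Tbx2, 17.7% for Tbx5 and 26.3% for Tbx20 in SMCs, 4.53% for Tbx3, 46.4% for Gata6, 6.70% for Hand2 and 3.35% for Meox2 in blood ECs and 1.13% for Tbx4 in mesothelial cells. Genes called over all alternatives numbered 1165 to 5197 for SMCs (3819 as reported), 1305 to 4227 for blood ECs (3185), 155 to 1453 for Pi16 FBs (958) and 995 to 3529 for mesothelial cells (3108) against FBs, and 0 to 20 in FBs (3), 0 to 210 in SMCs (2, and 210 without old 1) and 0 to 6 in blood ECs (0) for old against young. Old against young was not run with at least 1000 UMIs in SMCs or blood ECs, for too few cells. In SMCs it was also not run with the covariate or the sharing libraries alone. Old 2 had too few SMCs to use, and without it the covariate is the same as age. Depth in the young libraries limits every comparison with age.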
